A study of Solanum lycopersicum with 24 samples.

Results

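Tomato hairy roots that overexpressed the transcription factor gene SlMYB92 were compared with hairy roots that overexpressed the related gene SlMYB41. The comparison rests on the 6 of 24 libraries whose column names carry these labels, 3 per group. The hairy roots, which arise when Rhizobium rhizogenes transforms plant tissue and can be cultured without a shoot, were of the cultivar M82. In the first group SlMYB92, and in the second SlMYB41, was fused to a 3xFLAG tag and driven by the constitutive CaMV 35S promoter, so that each factor was made in cell types that may not normally hold it. An empty-vector control (3 libraries) served as the reference for both. The SlMYB41 and SlMYB92 knockouts, made with CRISPR/Cas9, the SlWRKY71 overexpression and the SlWRKY71 knockout lines 4 and 5, each with 3 libraries, served as background. All roots were kept dark at 25 °C for 9 days, on a medium that held 3% sucrose and the antibiotic cefotaxime. Each sample pooled the outermost 1 cm of 10 root tips. The sample titles tell no lines apart within either overexpression group, so a difference between the groups includes any difference between the hairy root lines. The p-values refer to the spread among samples within groups, estimated over all 24 libraries and not over these 6 alone. The protocol speaks of 4 biological replicates, and 3 libraries per group were analysed here. They are named by the number in their column, 2, 3 and 4 for SlMYB92 and 2, 3 and 5 for SlMYB41. The groups are called SlMYB92 roots and SlMYB41 roots below.

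SlMYB92 and SlMYB41 belong to the R2R3 MYB family, and their Arabidopsis relatives switch on suberin synthesis. Suberin is a polyester of long-chain fatty acids, glycerol and ferulate that seals root cell walls against the flow of water and solutes, and in tomato roots it is laid down in the exodermis, the outermost cortical layer. Its building blocks come from fatty acid hydroxylases (CYP86 enzymes), acyl-CoA synthetases (LACS), glycerol-3-phosphate acyltransferases (GPAT) and a feruloyl transferase (ASFT). Cutin and wax of aerial surfaces use related enzymes, and the phenylpropanoid pathway that starts with phenylalanine ammonia-lyase (PAL) supplies the ferulate.

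The 6 libraries held 5041081 to 12751648 estimated counts each, within the range of 4852464 to 15372241 over all 24 libraries. Of 34688 loci in the table, 18297 passed the filter on low counts and were tested. Levels are given as CPM, counts brought to a common library total with TMM scaling, and serve to compare 1 gene between libraries, not different genes. Differences are log2 values, SlMYB92 roots minus SlMYB41 roots unless the control is named, and a gene is called where the p of edgeR's quasi-likelihood test, adjusted over all tested genes by Benjamini-Hochberg (edgeR adjusted p), was under 0.05. The sources used here pair no identifier with a gene name, and the symbols of the 57 listed loci are recalled from work on tomato. Because the RNA comes from whole root tips, fewer cells of a type and less RNA per cell cannot be told apart.

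Each factor was high in its own group and near zero in the other. The level of SlMYB92 (Solyc05g051550) was 48.3, 87.6 and 60.6 CPM in the SlMYB92 roots (libraries 2, 3 and 4) and 0.191, 0 and 0.422 CPM in the SlMYB41 roots (libraries 2, 3 and 5). The groups did not overlap, with a log2 difference of 7.90 (SE 0.65; edgeR adjusted p = 1.9e-06). SlMYB41 (Solyc02g079280) stood at 12.4, 13.6 and 7.18 CPM in the SlMYB41 roots and at 0.174, 0.147 and 0.138 CPM in the SlMYB92 roots. That is 220 counts against 3, a ratio of 65.3 (95% counting interval 22.04 to 319; edgeR adjusted p = 0.0033). Neither factor was called against the control in the roots that overexpressed the other: SlMYB41 had an edgeR adjusted p of 0.68 in the SlMYB92 roots, and SlMYB92 had 0.80 in the SlMYB41 roots. Reads of a transgene count towards the native locus, so these levels do not separate the construct from the endogenous gene. They also differ between the groups in CPM, and how the level of each factor bears on the responses was not tested. SlWRKY71 (Solyc02g071130), which neither construct carries, was not called between the groups (0.71, SE 0.84; edgeR adjusted p = 0.90).

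Compared directly, 101 genes differed between the 2 kinds of root, 0.552% of those tested. With SlMYB92, 75 genes were higher (0.41%) and 26 lower (0.142%). In all of the 75 and 26 genes the 3 libraries of one group lay above the 3 of the other. Over all genes tested this was so in 17.1%, of which 8.95% had SlMYB92 higher and 8.17% lower. Against the control, SlMYB92 roots had 370 genes higher (2.02%) and 231 lower (1.26%), and SlMYB41 roots 119 higher (0.65%) and 60 lower (0.328%). These comparisons share the 3 control libraries, so they were used to sort the 101 genes and were not set against each other as evidence.

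**Figure D1:**
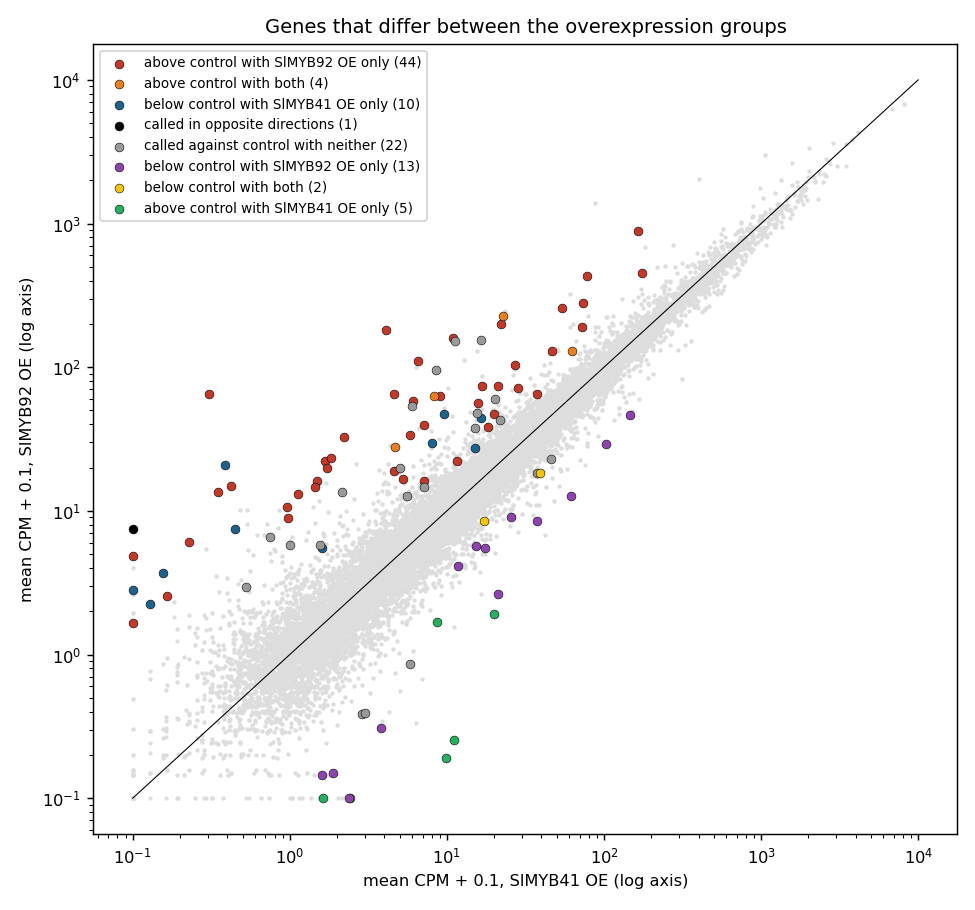
Mean level of each tested gene in SlMYB41 roots (x axis) and SlMYB92 roots (y axis), in CPM + 0.1 on log axes, 3 libraries per group, with equal levels on the line. Grey points are genes not called between the groups; coloured points are the 101 called genes, sorted by their calls against the control, and the 44 that were above the control with SlMYB92 only make up most of those above the line.

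Most genes that were higher with SlMYB92 were called above the control in SlMYB92 roots and were not called against it in SlMYB41 roots. This class held 44 of the 75 genes, with SlMYB92 itself and SlASFT among them. Their median difference from the control was 3.20 with SlMYB92 and 0.25 with SlMYB41. The median of their mean levels was 43.1 CPM in SlMYB92 roots, 6.20 CPM in SlMYB41 roots and 3.85 CPM in the control. Over the 44 genes the direct difference ran from 0.79 to 8.23. In 28 of them the 3 SlMYB92 libraries lay above each of the other 21 libraries of the series, as in 0.656% of all genes tested.

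An uncalled change with SlMYB41 is not an absent one. Of the 44 genes, 12 had the 3 SlMYB41 libraries above the 3 control libraries, where 8.82% of all genes tested did, 2 had them below, and 30 overlapped. In 8 genes the SlMYB41 change from the control exceeded 1 on the log2 scale (3.4% of all genes tested). With the 9 SlWRKY71 libraries as reference in place of the control, SlMYB92 roots had 258 genes higher (1.41%) and 91 lower (0.497%), and SlMYB41 roots 109 higher (0.596%) and 35 lower (0.191%). There, 26 of the 44 stayed in the class and 7 were called above the reference with both factors. A further 5 were called with neither, 5 were called below it with SlMYB41 only and 1 was called in opposite directions. The class then held 33 of the 75 genes, fewer than the other classes together.

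**Figure D2:**
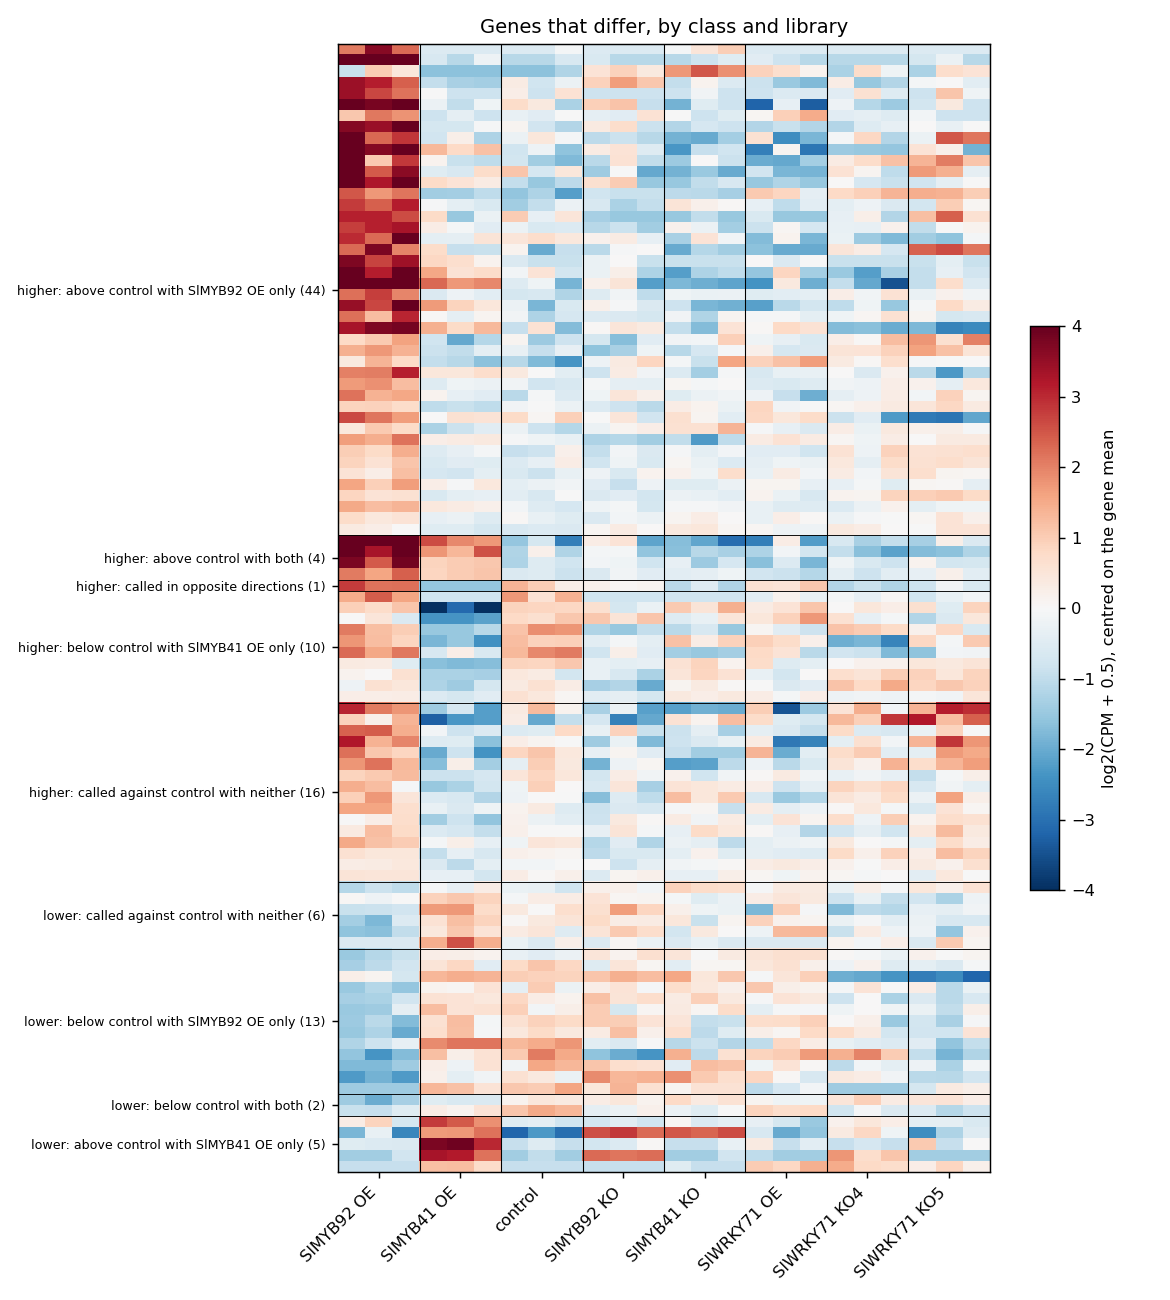
Levels of the 101 called genes (rows, grouped by their calls against the control) in the 24 libraries (columns, grouped), as log2(CPM + 0.5) minus the mean of the gene, with the colour scale ending at 4 in either direction. Most of the 44 genes above the control with SlMYB92 only are reddest in the first 3 columns, with paler rows and other high groups among them (SlMYB92 roots had the highest mean in 38), and most of the 10 genes below the control with SlMYB41 only are blue in the next 3.

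Only 4 genes were called above the control with both factors and higher still with SlMYB92. The identifiers of this class, named after their values had been seen, are Solyc04g014330, Solyc09g065410, Solyc03g005320 and Solyc02g085180. Solyc04g014330 stood at 274, 131 and 281 CPM in SlMYB92 libraries 2, 3 and 4, at 31.5, 19.2 and 17.0 CPM in SlMYB41 libraries 2, 3 and 5, and at 1.29, 2.70 and 0.282 CPM in the control. The 3 groups were separate, with SlMYB92 roots highest and the control lowest. The rise from the control was 7.45 with SlMYB92 and 4.10 with SlMYB41, and the difference between them 3.35 (SE 0.65; edgeR adjusted p = 0.016).

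The other members of this class had the same order of groups without overlap. Solyc09g065410 stood at 95, 21.4 and 72.9 CPM with SlMYB92 and at 7.06, 5.05 and 12.5 CPM with SlMYB41, a difference of 2.91 (SE 0.55; edgeR adjusted p = 0.013). Solyc03g005320 stood at 33.8, 13.4 and 36.3 CPM with SlMYB92 and at 4.20, 4.66 and 4.82 CPM with SlMYB41, a difference of 2.60 (SE 0.46; edgeR adjusted p = 0.0065). Solyc02g085180 had the smallest gap of the 4, at 131, 93.8 and 164 CPM against 56.6, 63.3 and 67.5 CPM, a difference of 1.05 (SE 0.21; edgeR adjusted p = 0.018). Its rise from the control was 2.74 with SlMYB92 and 1.69 with SlMYB41. Each of these 4 genes lost its call in at least 2 of the 6 fits that left out 1 overexpression library. Without SlMYB41 library 3, the edgeR adjusted p was 0.12 for Solyc04g014330, 0.116 for Solyc09g065410, 0.0551 for Solyc03g005320 and 0.0847 for Solyc02g085180. Without SlMYB41 library 2 these were 0.0584, 0.0934, 0.0549 and 0.112.

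On the side of lower genes, 2 were called below the control with both factors and further below with SlMYB92. Solyc11g010400 stood at 16.4, 16.1 and 22 CPM with SlMYB92, at 37.9, 34.2 and 45.3 CPM with SlMYB41 and at 66.4, 89.4 and 77.8 CPM in the control, a difference of -1.11 between the factors (edgeR adjusted p = 0.022). Solyc08g078460 stood at 9.24, 6.05 and 9.76 CPM with SlMYB92, at 17.9, 16.5 and 17.0 CPM with SlMYB41 and at 28.0, 35.2 and 32.9 CPM in the control, a difference of -1.04 (edgeR adjusted p = 0.019). At Solyc11g010400 the control was the highest of the 8 groups, and the SlMYB41 mean of 39.1 CPM lay above the means of all 4 knockout groups, 17.2 to 28.5 CPM. With the SlWRKY71 libraries as reference it was called with neither factor (-0.61 with SlMYB92 and 0.50 with SlMYB41), while Solyc08g078460 was called below it with both. In both genes the 3 groups were separate, and both were named after their values had been seen. Each lost its call in 4 of the 6 fits without 1 overexpression library, with edgeR adjusted p from 0.0541 to 0.124 there.

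Of the 119 genes called above the control with SlMYB41, 110 were not called in the direct comparison. The 95% interval of the difference lay within 1 log2 unit of 0 in 36 of the 110 and reached beyond it in 74. The median rise of the 119 genes was 2.70 with SlMYB41 and 2.31 with SlMYB92, and their median direct difference was -0.15. Of the 9 that differed, 4 were higher with SlMYB92 and 5 with SlMYB41. Of the 370 genes called above the control with SlMYB92, 49 were higher with SlMYB92 than with SlMYB41, none lower, and 321 were not called. In 89 of the 321 the interval lay within 1 log2 unit of 0. The median rise of the 370 was 1.98 with SlMYB92 and 0.97 with SlMYB41. Each of these lists was picked on its own factor's change, which favours that factor in the medians. Both rises were also taken from the same 3 control libraries, so a low control value raises both. The medians therefore do not show how far the responses are shared.

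The suberin list set SlMYB92 roots apart at 1 locus. Of its 6 loci, 5 were tested: 1 was higher with SlMYB92 (0.41% of all genes tested), none was lower (0.142%) and 4 were not called. The median direct difference was 2.69, where the median over all genes tested was -0.0013. Against the control, all 5 were called higher with SlMYB92 (2.02% of all genes tested) and 2, SlGPAT4 and SlLACS4, with SlMYB41 (0.65%). The list was chosen with earlier results of these data known, so these counts are not independent of them.

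SlASFT (Solyc03g097500), the feruloyl transferase that joins ferulate to the fatty acid chains of suberin, was the called locus. It stood at 187, 67.4 and 225 CPM in SlMYB92 libraries 2, 3 and 4, at 12.4, 8.73 and 11.3 CPM in SlMYB41 libraries 2, 3 and 5, and at 2.58, 4.13 and 1.22 CPM in the control. All SlMYB41 libraries lay above the control libraries and below the SlMYB92 libraries. The means were 160 ± 82.4 CPM and 10.8 ± 1.88 CPM (SD, n = 3), a difference of 3.88 (SE 0.67; edgeR adjusted p = 0.0052). The change of 2.09 from the control with SlMYB41 was not called (SE 0.71; edgeR adjusted p = 0.25). With the SlWRKY71 libraries as reference, SlASFT was called above it with both factors. It was 6.12 above with SlMYB92 (edgeR adjusted p = 3.9e-08) and 2.24 above with SlMYB41 (edgeR adjusted p = 0.0489). Without SlMYB41 library 3 the direct difference was 3.75, and its edgeR adjusted p of 0.0566 missed the threshold.

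Both fatty acid hydroxylases of the list were above the control with SlMYB92, but their difference from SlMYB41 roots was not called. SlCYP86A1 (Solyc06g076800), which adds the terminal hydroxyl group to long-chain fatty acids, stood at 11.2, 2.95 and 10.3 CPM with SlMYB92 and at 3.81, 0 and 0.254 CPM with SlMYB41. These groups overlapped, and the difference of 2.69 had a 95% interval from 0.55 to 4.83 (edgeR adjusted p = 0.35). The control held 3 counts in all at SlCYP86A1. SlWRKY71 knockout line 5 stood at 6.61 ± 5.68 CPM there, against 8.14 ± 4.515 CPM with SlMYB92 (SD, n = 3). With the SlWRKY71 libraries as reference, SlCYP86A1 was called higher with SlMYB92 (3.31; edgeR adjusted p = 0.035). SlCYP86B1 (Solyc02g014730), which acts on very long chains, stood at 8.72, 1.62 and 9.21 CPM with SlMYB92 and at 1.52, 0.582 and 0.676 CPM with SlMYB41. Its libraries did not overlap, and the difference of 2.83 had a 95% interval from 1.07 to 4.59 (edgeR adjusted p = 0.18).

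SlGPAT4 and the acyl-CoA synthetase of the list were called above the control with both factors. SlGPAT4 (Solyc01g094700), which attaches fatty acids to glycerol, stood at 50.03, 19.9 and 68.6 CPM with SlMYB92, at 18.3, 17.3 and 31.0 CPM with SlMYB41 and at 1.29, 2.22 and 2.25 CPM in the control. All 6 overexpression libraries lay above the control, while the 2 overexpression groups overlapped. The rise was 4.58 with SlMYB92 and 3.53 with SlMYB41, and the difference of 1.05 had a 95% interval from 0.13 to 1.97 (edgeR adjusted p = 0.42). SlLACS4 (Solyc01g095750), which activates fatty acids with coenzyme A, was the list's 1 tested locus with the higher mean in SlMYB41 roots. It stood at 13.2, 4.42 and 17.6 CPM with SlMYB92, at 15.8, 18.2 and 19.0 CPM with SlMYB41 and at 5.97, 3.81 and 2.07 CPM in the control. The groups overlapped, with a difference of -0.59 (95% interval -1.42 to 0.24; edgeR adjusted p = 0.73). SlLACS4 was above the control by 1.58 with SlMYB92 and by 2.17 with SlMYB41, with edgeR adjusted p of 0.041 and 0.0091. Its SlMYB92 libraries overlapped the control libraries, and its SlMYB41 libraries did not. With the SlWRKY71 libraries as reference, it was called with SlMYB41 (1.72; edgeR adjusted p = 0.0043) and not with SlMYB92 (1.13; edgeR adjusted p = 0.082). A second suberin acyltransferase, SlGPAT5 (Solyc04g011600), was below the filter at 2.12 ± 1.55 CPM with SlMYB92 and 0.412 ± 0.34 CPM with SlMYB41 (SD, n = 3). So were the suberin regulators SlMYB63 and SlMYB93.

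**Figure D3:**
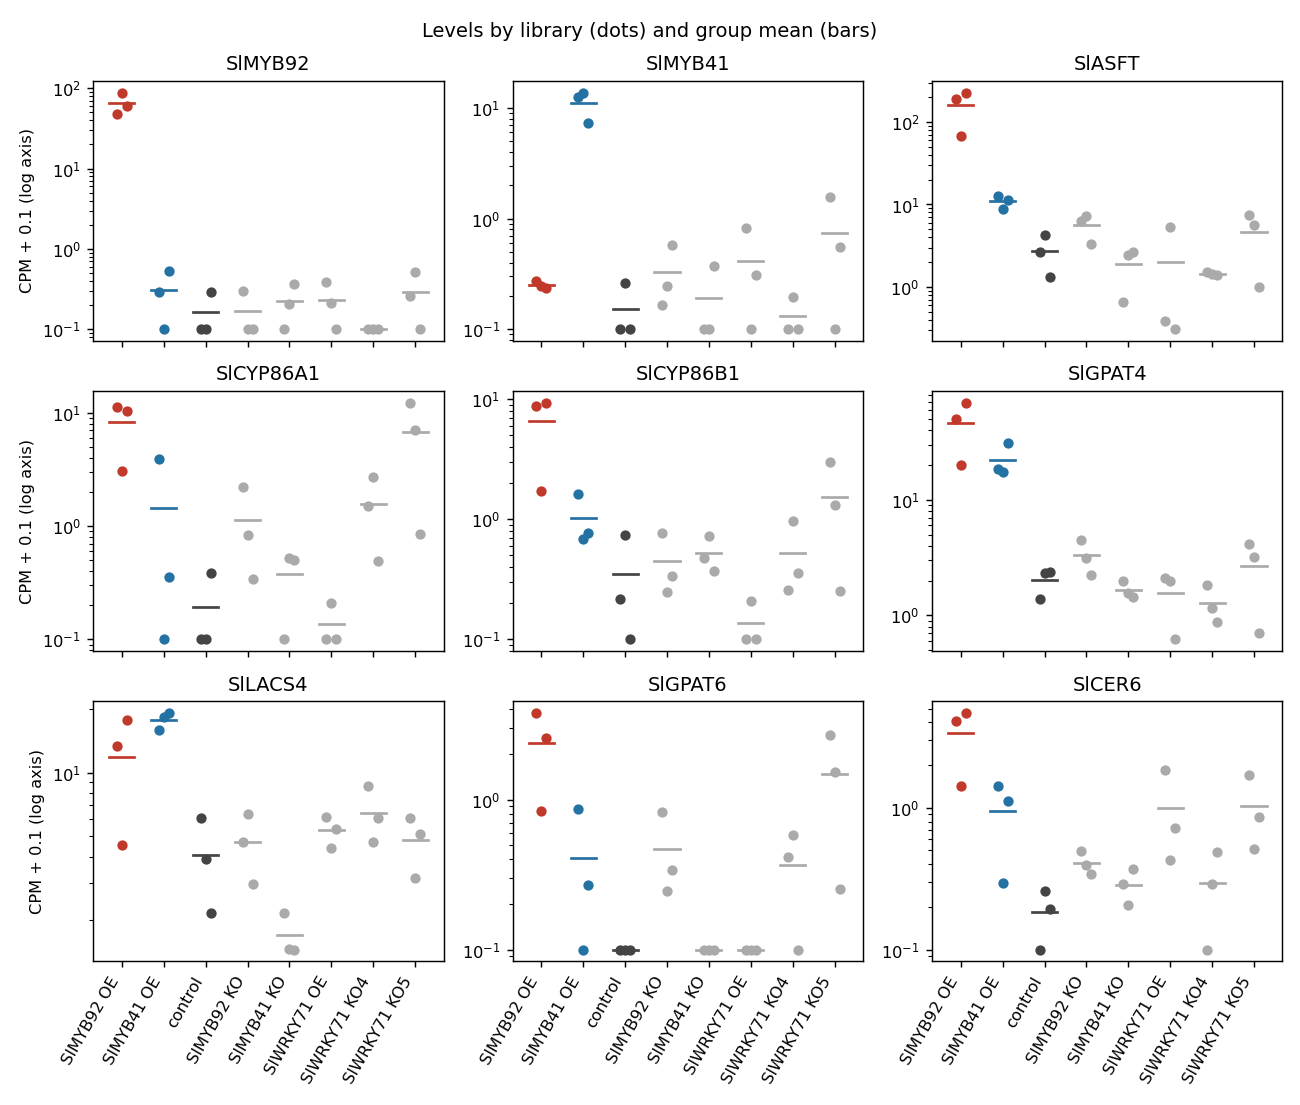
Levels of the 2 overexpressed genes, 5 suberin loci, SlGPAT6 and SlCER6 in the 8 groups, as CPM + 0.1 on log axes; dots are libraries and bars group means, 3 libraries per group. SlMYB92 roots were the highest group for SlASFT, SlCYP86A1, SlCYP86B1 and SlGPAT4, and SlMYB41 roots for SlLACS4.

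Library 3 of the SlMYB92 roots was the lowest of its group at SlASFT, SlCYP86A1, SlCYP86B1, SlGPAT4 and SlLACS4, although SlMYB92 itself was highest there. The same library was the lowest of its group in 24 of the 44 genes above the control with SlMYB92 only and in all 4 genes above the control with both factors, where 40.2% of all genes tested had their lowest SlMYB92 value in it and 37.7% their highest. Without this library SlASFT differed by 4.24 (edgeR adjusted p = 0.0028).

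No locus of the cutin and wax list was called between the factors. Of 10 loci, 6 were tested, 3 were below the filter and 1 was not analysed here. The median difference was 0.53. SlGPAT6 (Solyc09g014350), a cutin acyltransferase, stood at 3.66, 0.737 and 2.48 CPM with SlMYB92 and at 0.763, 0 and 0.169 CPM with SlMYB41, which overlap (2.92, SE 1.09; edgeR adjusted p = 0.35). SlCER6 (Solyc02g085870), a condensing enzyme that lengthens fatty acids, stood at 4.01, 1.33 and 4.54 CPM with SlMYB92 and at 1.33, 0.194 and 1.01 CPM with SlMYB41 (1.90, SE 0.70; edgeR adjusted p = 0.32). SlCD1 (Solyc11g006250), the enzyme that polymerises cutin, was lower in all 3 SlMYB92 libraries, at 1.00 ± 0.537 CPM against 1.93 ± 0.673 CPM (SD, n = 3), but was not called (-0.97, SE 0.67; edgeR adjusted p = 0.74). SlGPAT6 and SlCER6 were called above the control with SlMYB92 and not with SlMYB41. At SlCER6, all SlMYB41 libraries still lay above the control libraries, with a change of 3.21 (SE 1.00; edgeR adjusted p = 0.17). The control held 2 counts in all there. The SlMYB41 mean of 0.848 CPM was below SlWRKY71 overexpression (0.897 CPM) and knockout line 5 (0.927 CPM), and above line 4 (0.194 CPM). With the SlWRKY71 libraries as reference, SlCER6 was called higher with SlMYB92 (2.54; edgeR adjusted p = 0.0099) and not called with SlMYB41 (0.63; edgeR adjusted p = 0.87). At SlGPAT6, which had no count in the control, the edgeR adjusted p with SlMYB41 was 0.56.

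No phenylpropanoid locus was called between the factors. Of 11 PAL loci, 6 were tested and none was called, with differences from -0.33 to 0.75 and a median of 0.29. Where PAL copies are near-identical, pseudoalignment divides their reads by estimation, so their single values are uncertain; how alike these copies are was not tested. PAL5 (Solyc09g007920) stood at 466, 802 and 322 CPM with SlMYB92 and at 414, 378 and 154 CPM with SlMYB41, which overlap (0.75, SE 0.43; edgeR adjusted p = 0.64). The copy Solyc03g042560 was called above the control with both factors, by 5.19 with SlMYB92 and 5.52 with SlMYB41, from a control with 1 count in all. The control was the 1 group near 0 at this locus: the means of the other 7 groups ran from 1.04 to 2.66 CPM, and against the SlWRKY71 libraries neither factor was called (edgeR adjusted p of 0.75 with SlMYB92 and 0.70 with SlMYB41). Of 10 monolignol loci, 9 were tested and none was called, with a median of 0.06. Among them F5H (Solyc02g084570), the ferulate 5-hydroxylase of the syringyl branch of lignin synthesis, stood at 7.84, 6.49 and 5.50 CPM with SlMYB92, at 2.67, 1.75 and 1.86 CPM with SlMYB41 and at 1.41, 0.794 and 0.658 CPM in the control. The 3 groups were separate, yet the difference of 1.66 was not called (SE 0.43; edgeR adjusted p = 0.099), although it passed with DESeq2 (adjusted p = 0.0319). F5H was called above the control with SlMYB92 (2.78, SE 0.45; edgeR adjusted p = 8.2e-04). None of the 3 tested flavonoid loci and none of the 3 tested abscisic acid loci was called.

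**Figure D4:**
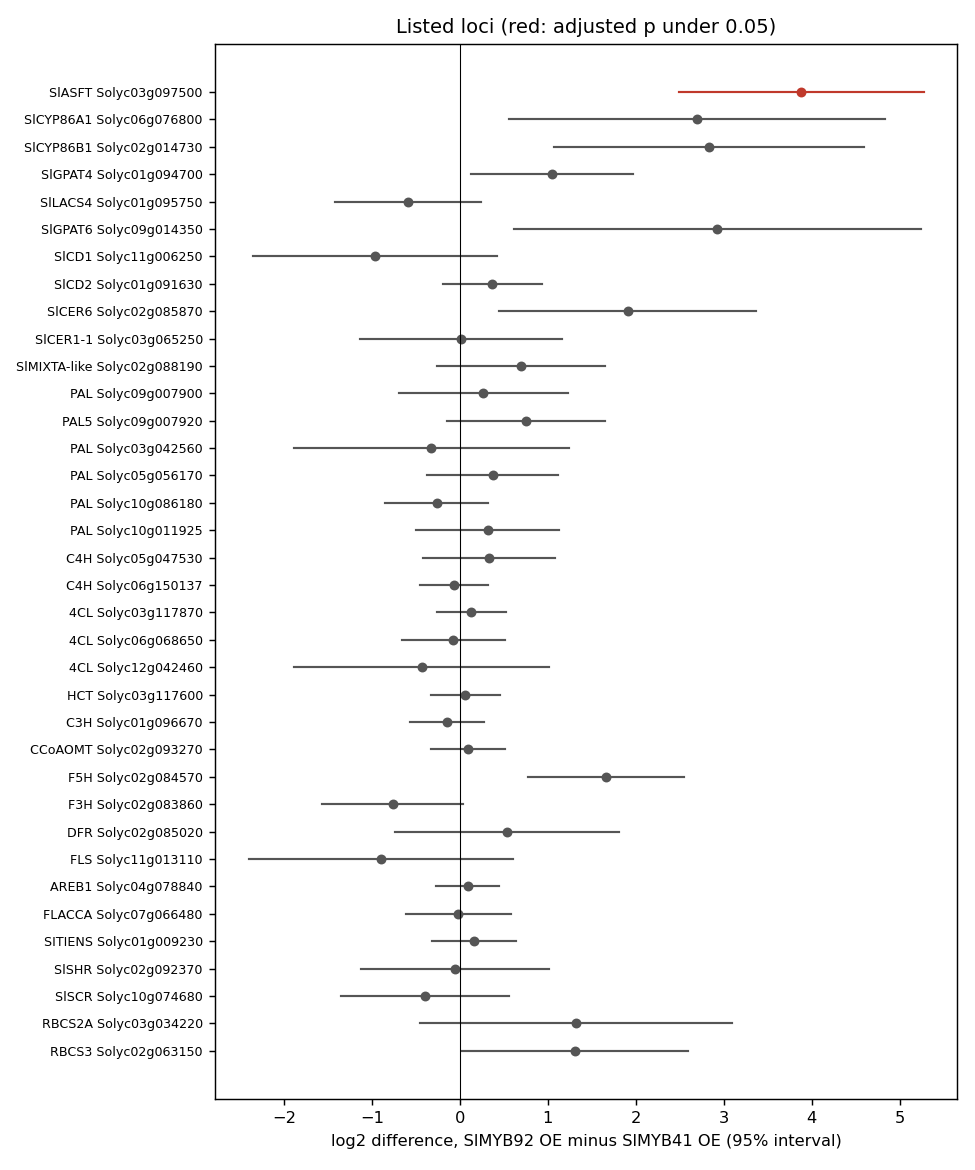
Log2 difference, SlMYB92 roots minus SlMYB41 roots, with its 95% interval for the 36 tested listed loci other than the 3 targeted genes. SlASFT (red) is the 1 locus called; the suberin hydroxylases, SlGPAT4, SlGPAT6, SlCER6, F5H and RBCS3 also have intervals above 0 that did not pass the adjustment over all genes.

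Another set of genes was called below the control in SlMYB41 roots. Of the 75 genes higher with SlMYB92, 10 were called below the control with SlMYB41 and not called against it with SlMYB92. Their median difference from the control was -3.51 with SlMYB41 and -0.0013 with SlMYB92. SlMYB41 roots alone were the lowest of the 8 groups in 6 of the 10, and in 3 their libraries lay below each of the other 21 libraries (0.071% of all genes tested). With the SlWRKY71 libraries as reference, 6 of the 10 stayed in the class and 2 were called above it with SlMYB92 only. Of the rest, 1 was called with neither factor and 1 in opposite directions. Solyc06g063330, named after its values had been seen, stood at 0, 0.776 and 0.0845 CPM in SlMYB41 libraries 2, 3 and 5 and at 20.9, 17.8 and 23.2 CPM in SlMYB92 libraries 2, 3 and 4. The control libraries, at 19.9, 19.4 and 18.9 CPM, lay with the SlMYB92 libraries, and the means of the other 5 groups ran from 10.6 to 22.2 CPM. The difference was 6.38 (SE 0.61; edgeR adjusted p = 3.4e-06).

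Solyc11g042950 was the 1 gene called in opposite directions and had the largest fitted difference of the 75. It stood at 9.76, 6.05 and 6.19 CPM with SlMYB92 and at 3.28, 2.38 and 1.22 CPM in the control, and it had no count in any SlMYB41 library. The groups were separate. It was at least 53.2-fold higher with SlMYB92 than with SlMYB41 taking 3 counts as the floor of the SlMYB41 group (edgeR adjusted p = 6e-06). SlMYB92 roots were above the control by 1.68 (edgeR adjusted p = 0.039), and SlMYB41 roots at least 16.3-fold below it (edgeR adjusted p = 1e-04). The control mean of 2.29 CPM was above that of every group but SlMYB92 roots. The SlMYB41 knockout stood at 0.283 CPM, the SlMYB92 knockout at 1.10 CPM and SlWRKY71 overexpression at 2.00 CPM. SlWRKY71 knockout lines 4 and 5 stood at 0.192 and 0.533 CPM. With the SlWRKY71 libraries as reference, this gene was again called in opposite directions. The next largest was Solyc01g065643, at 2.62, 8.70 and 3.03 CPM with SlMYB92 and with no count with SlMYB41, at least 35.9-fold higher (edgeR adjusted p = 0.021). Its call was lost in 4 of the 6 fits without 1 overexpression library, with edgeR adjusted p from 0.0663 to 0.102, and with DESeq2 (adjusted p = 0.391).

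The remaining 16 of the 75 genes were called against the control with neither factor. Their median difference from the control was 0.89 with SlMYB92 and -0.93 with SlMYB41, so the control lay between the groups. In 12 of the 16 the SlMYB41 libraries all lay below the control libraries, as in 7.82% of all genes tested. The class was picked as higher with SlMYB92 than with SlMYB41 and uncalled against the control. That choice favours a control between the groups and SlMYB41 libraries below it.

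SlMYB41 roots had 5 genes called above the control that were higher than with SlMYB92 and not called with SlMYB92. Besides SlMYB41 they were, named after their values had been seen, Solyc09g089570, Solyc10g012240, Solyc01g010365 and Solyc09g150128. Solyc09g089570 stood at 12.4, 11.4 and 5.41 CPM in SlMYB41 libraries 2, 3 and 5 and at 0, 0 and 0.275 CPM in the SlMYB92 libraries, 188 counts against 2, a ratio of 83.7 (95% counting interval 22.8 to 696; edgeR adjusted p = 4.9e-04). It was also at 5.59 CPM in the SlMYB92 knockout. Solyc10g012240 stood at 17.5, 17.9 and 24.2 CPM with SlMYB41 and at 1.05, 3.98 and 0.413 CPM with SlMYB92, a difference of -3.45 (SE 0.55; edgeR adjusted p = 0.0028). Its highest groups were the SlMYB41 knockout at 30.3 CPM and the SlMYB92 knockout at 32.6 CPM.

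Of these 5 genes, SlMYB41, Solyc09g089570 and Solyc10g012240 kept their call in every alternative tried. Solyc01g010365 differed by -2.40 (SE 0.51; edgeR adjusted p = 0.027), and its call was lost in 4 of the 6 fits without 1 library, with edgeR adjusted p from 0.116 to 0.164. Solyc09g150128, with 31 counts in SlMYB41 roots and 0 in SlMYB92 roots, was at least 9.20-fold lower with SlMYB92 (edgeR adjusted p = 0.015). It lost its call in 5 of the 6 fits, with edgeR adjusted p from 0.0549 to 0.0721. At 1.52 CPM in SlMYB41 roots it was no higher than in SlWRKY71 overexpression (1.58 CPM), with 1.47 and 0.827 CPM in SlWRKY71 knockout lines 4 and 5, and against these libraries SlMYB41 roots were not called (0.27; edgeR adjusted p = 0.94).

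The most common class among the 26 lower genes, with 13 members, was below the control with SlMYB92 only. Their median difference from the control was -2.14 with SlMYB92 and -0.013 with SlMYB41. SlMYB92 roots were the lowest of the 8 groups in 10 of the 13, in 1 of them tied with another group at 0, and in 6 of the 13 the 3 SlMYB92 libraries lay below each of the other 21 libraries (0.301% of all genes tested). Solyc04g077750 had no count with SlMYB92 and stood at 2.86, 2.52 and 1.44 CPM with SlMYB41 and at 2.34, 2.22 and 3.48 CPM in the control. It was at least 13.4-fold lower with SlMYB92 than with SlMYB41 (edgeR adjusted p = 0.0029). SlWRKY71 knockout line 4 also had a mean of 0 CPM and SlWRKY71 overexpression 0.402 CPM, and with the SlWRKY71 libraries as reference the gene was called above it with SlMYB41 (3.62; edgeR adjusted p = 0.0013) and not called with SlMYB92. A further 6 of the 26 were called against the control with neither factor. Solyc05g005865 was one of them, at 1.52, 3.88 and 1.52 CPM with SlMYB41 and with no count with SlMYB92, at least 13.7-fold lower (edgeR adjusted p = 0.036). It lost its call in each of the 6 fits without 1 library, with edgeR adjusted p from 0.0737 to 0.18.

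Some genes that were higher with SlMYB92 lay side by side in the genome. Locus identifiers number loci along each chromosome, and 21 of the 75 higher genes had another higher gene within 3 tested loci. Of the loci within that distance of a higher gene, 8.44% were called higher, where 0.41% of all genes tested were. None of the 26 lower genes had a called lower neighbour. The 21 genes formed 7 runs on chromosomes 1, 4, 5, 7 and 9. The count of 21 fell to 4, 2 and 4 without SlMYB41 library 2, 3 and 5, where 36, 24 and 29 genes in all were called higher, and to 8 and 9 without SlMYB92 library 2 and 4. Pseudoalignment shares reads between near-identical copies, and the sequences of these loci were not used here, so whether neighbours share reads was not tested.

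The runs, picked out after their values had been seen, differed in where else they were high. On chromosome 9, Solyc09g065420 stood at 236, 83.2 and 225 CPM with SlMYB92 and at 4.58, 2.52 and 4.82 CPM with SlMYB41, a difference of 5.48 (SE 0.78; edgeR adjusted p = 6.5e-04). On its sides lay Solyc09g065410, described earlier as called above the control with both factors, and Solyc09g065430. The latter stood at 337, 460 and 488 CPM against 91.3, 57.8 and 84.6 CPM (2.46, SE 0.48; edgeR adjusted p = 0.016). The 3 SlMYB92 libraries lay above each of the other 21 libraries at these loci and at the run of Solyc04g014310, Solyc04g014320 and Solyc04g014330 on chromosome 4. Of these 6 loci Solyc09g065420 alone kept its call in every alternative tried. In the fits without 1 overexpression library, Solyc09g065430 lost its call in 4 of 6 (edgeR adjusted p from 0.0579 to 0.132), Solyc04g014320 in 5 (0.107 to 0.19) and Solyc04g014310 in 2 (0.0566 and 0.0573). The pair Solyc05g012920 and Solyc05g012930 on chromosome 5 kept its calls in every alternative tried, with differences of 2.81 (SE 0.26) and 1.94 (SE 0.22). Its libraries stood at 57.4, 84.5 and 47.6 CPM with SlMYB92 and at 7.82, 10.3 and 8.87 CPM with SlMYB41 for Solyc05g012920, without overlap.

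At the first run on chromosome 1, SlWRKY71 knockout line 5 stood above SlMYB92 roots: the means were 1166 and 881 CPM at Solyc01g059965 and 284 and 95.5 CPM at Solyc01g060020, where knockout line 4 stood at 197 CPM. SlMYB41 roots were at 164 and 8.37 CPM there. In the second run on chromosome 1, line 5 stood at 10.0 CPM at Solyc01g102890, against 14.6 CPM with SlMYB92. It was low at Solyc01g102895 and Solyc01g102910, at 1.04 and 1.44 CPM against 13.5 and 6.5 CPM. In the first run on chromosome 4, line 5 stood at 380, 137 and 54 CPM against 455, 190.5 and 72 CPM with SlMYB92.

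The longest run, on chromosome 7 between Solyc07g009040 and Solyc07g009100, had 5 of its 7 tested loci called, with differences of 3.25 to 4.13 among the called. SlMYB41 roots were below the control at several of its loci without a call, and SlWRKY71 knockout line 5 was high as well. At Solyc07g009100 the means were 152 CPM with SlMYB92, 11.1 CPM with SlMYB41, 45.2 CPM in the control and 181 CPM in knockout line 5. At Solyc07g009040 they were 110 CPM, 6.46 CPM, 9.69 CPM and 34.2 CPM. All 5 calls were lost in at least 1 fit without an overexpression library: without SlMYB41 library 3 the edgeR adjusted p was 0.0518 for Solyc07g009090 and 0.118 for Solyc07g009080, and without SlMYB92 library 2 it was 0.102 for Solyc07g009040.

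**Figure D5:**
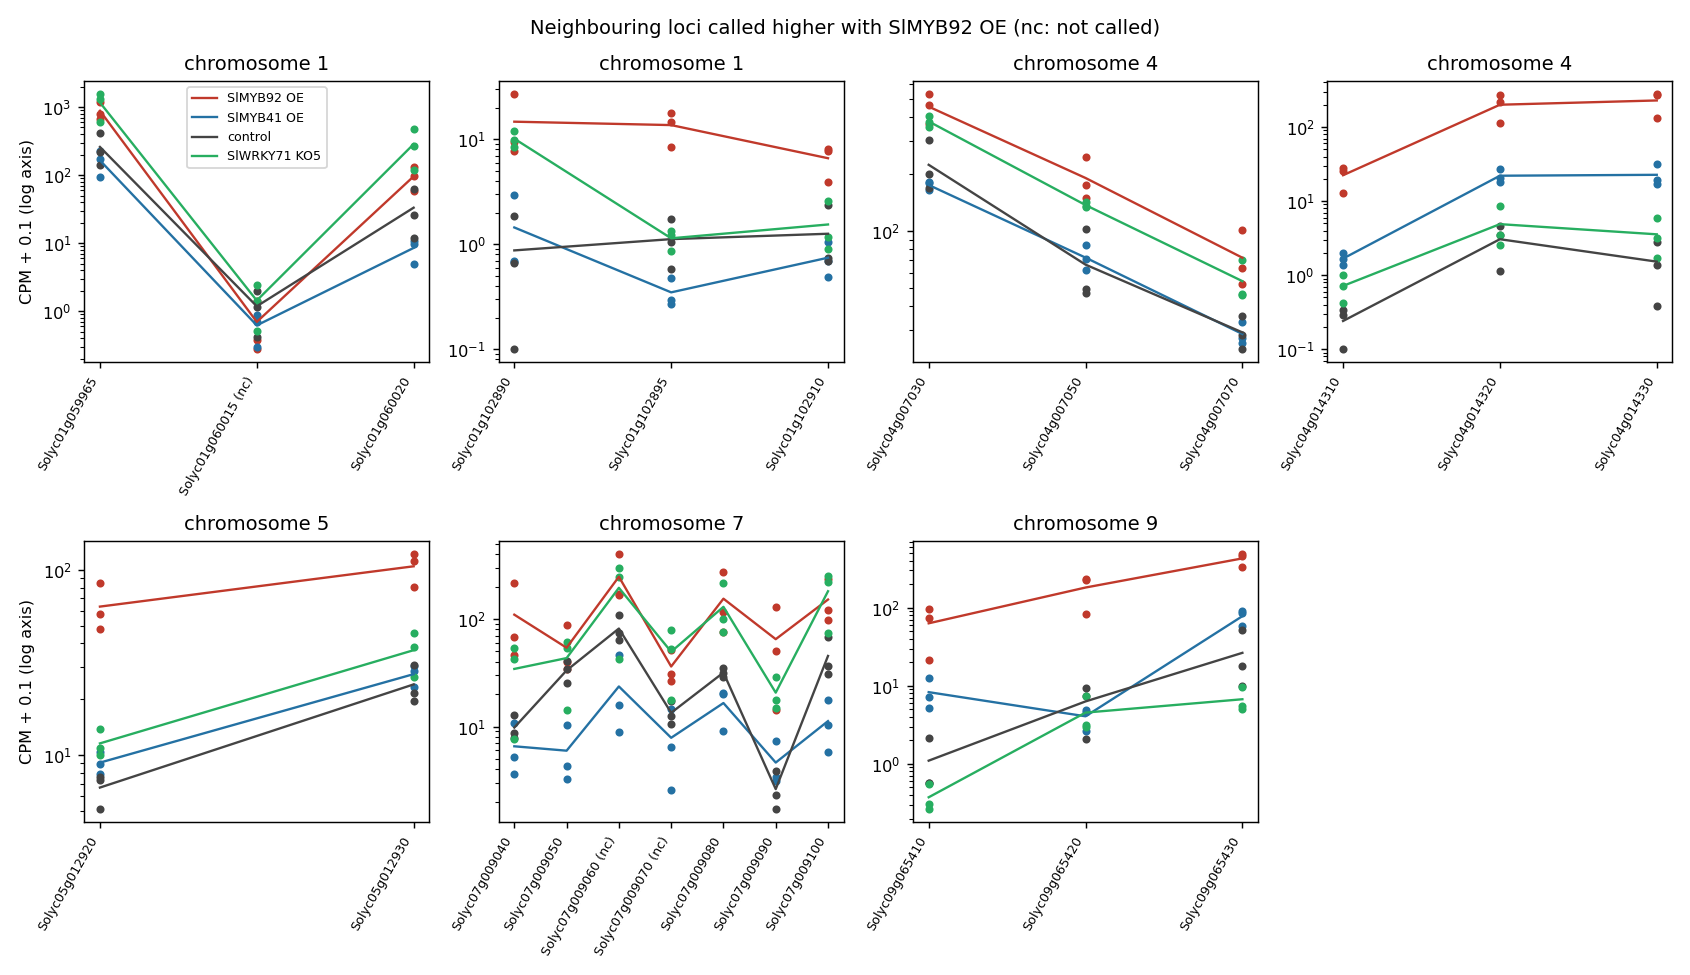
Levels of the tested loci in each of the 7 runs of neighbouring genes that were higher with SlMYB92, as CPM + 0.1 on log axes, in SlMYB92 roots, SlMYB41 roots, the control and SlWRKY71 knockout line 5; dots are libraries, lines join group means of 3 libraries, and nc marks loci that were not called. SlMYB92 roots stand clear of the other groups in the runs on chromosomes 5 and 9 and in the second run on chromosome 4. Line 5 reaches them on chromosome 7, at Solyc01g102890 in the second run on chromosome 1, and at Solyc04g007030 and Solyc04g007070 in the first run on chromosome 4. It exceeds them at the called loci of the first run on chromosome 1.

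No marker gene of the tissue was called between the 2 kinds of root. SlSHR and SlSCR, root radial patterning genes, had a summed level of 5.23 to 6.64 CPM in SlMYB92 roots and 4.56 to 9.34 CPM in SlMYB41 roots, and neither was called. The ribulose bisphosphate carboxylase small subunit genes, which mark green tissue, summed to 2.61 to 7.67 CPM in SlMYB92 roots and 1.94 to 3.69 CPM in SlMYB41 roots. Of the 3 loci, 2 were tested and neither was called, although the 3 SlMYB92 libraries lay above the 3 SlMYB41 libraries at RBCS3 (1.31, SE 0.62; edgeR adjusted p = 0.50). RBCS1 had no count in SlMYB92 roots. The part of tissue makeup in the differences above was not tested.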

How the data were processed

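Samples were grouped by their column names, which match the labels. The deposited table holds estimated counts per locus. The submitters' processing notes name kallisto 0.46.2 and Trim Galore 0.6.6 as tools the authors used, and the transcripts indexed were not given in the sources used here. The libraries do not mark strand, so the reads of genes that overlap on opposite strands are not told apart. Estimated counts were rounded. Of 34688 loci, 6479 had no count and 18297 passed filterByExpr.

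All 24 libraries entered 1 edgeR 4.0.16 quasi-likelihood fit (run in R 4.3.3 with limma 3.58.1). The fit had 1 mean for each group, TMM factors of 0.909 to 1.12 and Benjamini-Hochberg adjustment over all tested genes. The common biological coefficient of variation was 28.1%. A standard error is the log2 change over the root of its F statistic. Folds against 0 counts are bounds from a floor of 3 counts over the group, and with 1 to 3 counts ratios carry a 95% interval. Both cover counting error only. The script was tested on simulated data. No 2 libraries of a group were identical.

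The loci, lists and tests were chosen with earlier results of these data known. Of the identifiers, 0 were found in the RefSeq table. Of the listed symbols, 16 occur there on the chromosome of the identifier, 24 do not and 17 are family names that were not checked. Named genes were the listed loci and, for lack of names, the 2 identifiers with the largest difference in each direction among genes that were called and had separate libraries. Others are said to be named after their values were seen. Alternatives were DESeq2 1.42.0, its size factors in edgeR, no filter, the 6 libraries alone, glmTreat against a log2 fold change of 1, a block for the column number, leaving out each library, the SlWRKY71 libraries as reference, and other windows. Neighbour distances were added after seeing the data.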

Additional observations from a re-analysis of the deposited data

How the results depend on the processing

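The 101 calls became 235 with DESeq2, 100 of the 101 among them, 24 with glmTreat, and 34 to 71 without 1 of the 6 overexpression libraries, the fewest without SlMYB41 library 3. Other scaling, no filter and the 6 libraries alone gave 96, 150 and 151, with 96, 95 and 76 of the 101 among them. Against the control, the 601 calls of SlMYB92 became 963 with DESeq2, 139 with glmTreat and 261 to 428 without 1 library, and the 179 of SlMYB41 became 339, 68 and 94 to 135. Of the 101 genes, 18 kept their call in all 12 alternatives and 27 in every fit without 1 library. With the SlWRKY71 reference 58 of 101 kept their class, and without 1 control library 78 to 85. The class above the reference with both factors held 11 genes with the SlWRKY71 reference and 1 to 4 without 1 control library. Column numbers are shared by 2 pairs, whose deviations correlated at -0.17 and 0.301, where the other pairs ran from -0.516 to 0.383. Whether the numbers pair the samples cannot be told from 2 pairs. With the replicate block the calls were 62 (55 of the 101) between the factors and 379 and 171 against the control. The highest and lowest window medians, 0.27 and -0.42 in windows of 50 loci, were 1.12 and -1.11 in windows of 20 and 0.18 and -0.19 in windows of 100. None of the 45 genes followed through the alternatives reversed its direction. Some other named loci, PAL5 and RBCS3 among them, were not followed there. The cause of these changes was not tested. Low depth leaves loci such as SlGPAT5 untested.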

Other observations

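Chromosome 4 had the highest share of tested genes called higher with SlMYB92, 13 of 1549 (0.839%), and chromosome 10 the lowest, 1 of 1175 (0.0851%). In windows of 20 consecutive tested loci, the highest median difference, 1.12, lay on chromosome 7 from Solyc07g008930 to Solyc07g009320, around the run described above. The lowest, -1.11, lay on chromosome 12 from Solyc12g098190 to Solyc12g098410, where the levels were lower in SlMYB92 roots.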
